A study of Mus musculus with 15 samples.

Results

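The 10 genes described here are a set of neutrophil transcripts: the calprotectin subunits S100a8 and S100a9, the secreted proteins Lcn2 and Retnlg, the receptors Csf3r and Cxcr2, and the granule proteins Mpo, Elane, Camp and Ngp. They were listed by name for their known place in neutrophils, with earlier results of these data known, and they were followed in all 15 pancreas RNA-Seq libraries of the series. The tables of the HC and of the KC and KMC libraries each list 49585 genes and hold all 10, whereas the MC table lists 15175 genes and holds 6 of the 10. Mpo, Elane, Camp and Ngp are not listed in the MC table and were not analysed in those 6 libraries.

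Neutrophils leave the marrow and enter injured tissue along chemokine gradients read by Cxcr2, and their production is driven by G-CSF through Csf3r. Their granule proteins are made in order while the cell matures: Mpo and Elane are transcribed in promyelocytes, Camp and Ngp later in the marrow, and S100a8, S100a9, Csf3r, Cxcr2 and Retnlg are carried by cells in blood and tissue. In pancreatitis, neutrophils are among the first cells to enter the organ, and Lcn2 is made there by stressed epithelium as well as by neutrophils.

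The series asked how the kinase HPK1 (gene Map4k1) acts in acinar cells of C57BL/6 mice. The MC group carried M46, a kinase-dead HPK1, was 2 months old (n = 3 libraries), and was set against Bac-cre controls of the same age (MC control, n = 3). The HC group carried wild-type HPK1 with Bac-cre at 4 months (n = 3) and was set against 4-month-old wild-type mice (HC control, n = 2). MC, HC and their controls had received cerulein, a cholecystokinin analogue that injures the acinar cell. KC mice carried Bac-cre with a further allele and were 15 months old (n = 2); KMC mice carried M46 in addition and were 9 months old (n = 2), and no treatment of these groups is named in the sample labels, while the study describes both as pancreatic cancers. Bac-cre is a tamoxifen-inducible Cre under the acinar elastase I promoter, so the transgenes were switched on in acinar cells and the neutrophils themselves were not targeted. Each library pooled RNA from the pancreata of 3 mice. Library totals ran from 29766575 to 38745907 counts. Levels are CPM scaled by TMM within each table. Levels of different tables stand side by side without a test. Since nothing states how mice were assigned to pools beyond their group, p-values measure the spread between these pooled libraries and not between single mice.

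The targeted gene was read first. Map4k1 lay at 3.80, 4.14 and 2.34 CPM in the MC controls and at 8.32, 6.79 and 7.51 CPM in MC. In the HC table Map4k1 lay at 15.4 and 11.5 CPM in the controls and at 7.33, 5.05 and 7.93 CPM in the libraries labelled HC. Map4k1 in the KC and KMC table lay at 0.545 and 1.55 CPM in KC and at 5.92 and 11.4 CPM in KMC. The transgenic libraries were thus the higher ones in MC and KMC, while the libraries labelled HC were lower than their controls, against the label of an added HPK1 transgene. The counts of Map4k1 do not separate transgene from endogenous transcripts, and Map4k1 is also a gene of blood cells. Ptprc, the common leukocyte antigen CD45, had the same order of groups, at 13.4, 19.8 and 8.40 CPM in MC controls and 38.3, 41.0 and 52.4 CPM in MC. Ptprc lay at 116.3 and 72.6 CPM in HC controls against 62.6, 35.1 and 49.0 CPM in the libraries labelled HC, and at 3.13 and 10.1 CPM in KC against 33.4 and 58.6 CPM in KMC.

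Other libraries stood apart from their group. HC 3 had Xist at 0.761 CPM and Ddx3y at 48.4 CPM, as in male mice, whereas HC 1 and HC 2 had Xist at 801 and 579.3 CPM and no Ddx3y counts, as had both HC controls. KC libraries had Xist at 0.681 and 0.348 CPM with Ddx3y at 10.7 and 17.3 CPM, and KMC libraries had Xist at 405.5 and 306 CPM with Ddx3y at 0. Sex, age and M46, and whatever share of each sample was tumour, therefore cannot be told apart between KC and KMC. MC control 2 had the highest and MC control 3 the lowest level of S100a8, S100a9 and Csf3r among the MC controls. Bulk RNA cannot tell fewer neutrophils from less RNA per neutrophil, nor from a change in other cells with the same transcripts. This holds for every level below. Ly6g, a defining mouse neutrophil marker, had 0 counts in both HC controls, in HC 1, HC 3 and both KC libraries, 1 count in HC 2, and 3 and 4 counts in KMC 1 and KMC 2; it is not listed in the MC table.

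After cerulein with M46, none of the 6 listed genes differed beyond the spread of the libraries. S100a8, a calcium-binding alarmin of neutrophil cytosol, lay at 2.41, 8.31 and 0.899 CPM in the MC controls and at 3.18, 6.93 and 3.26 CPM in MC. Its partner S100a9 lay at 3.93, 12.1 and 0.989 CPM in the MC controls and at 4.73, 10.5 and 3.41 CPM in MC. For both genes MC control 2 was the highest of the 6 libraries and MC control 3 the lowest, so that the MC values fell inside the range of the controls. Lcn2, which binds bacterial siderophores, lay at 23.3, 133.6 and 33.4 CPM in the MC controls and at 77.7, 168.5 and 95.2 CPM in MC. Retnlg, a resistin-like secreted protein, lay at 4.00, 4.50 and 0.315 CPM in MC controls and at 1.49, 4.11 and 4.37 CPM in MC. The Lcn2 values of MC exceeded 2 of the 3 controls, and the Retnlg values overlapped throughout.

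The receptors gave the same picture. Csf3r, the G-CSF receptor, lay at 11.5, 22.9 and 4.04 CPM in the MC controls and at 13.5, 17.2 and 16.1 CPM in MC. Cxcr2, the receptor for neutrophil chemokines, lay at 2.02, 5.51 and 0.899 CPM in the MC controls and at 2.06, 3.43 and 2.07 CPM in MC. Both overlapped, with the controls spread more widely than MC.

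The fitted log2 fold change (edgeR quasi-likelihood test, Benjamini-Hochberg adjusted p over 13902 genes) was 0.84 for Lcn2 (SE 0.64, adjusted p = 0.523), 0.19 for S100a8 (SE 0.71, adjusted p = 0.906), 0.27 for Csf3r (SE 0.51, adjusted p = 0.8) and −0.17 for Cxcr2 (SE 0.59, adjusted p = 0.897). A gene counted as called when its adjusted p did not exceed 0.05 and its log2 fold change was 1 or more in either direction. By that rule 0 of the 6 genes were called, beside 0% of all genes tested (0 of 13902, with 2038 at an unadjusted p under 0.05). DESeq2 at the same thresholds also called 0 of the 6, beside 3.26% of all genes. With groups required not to overlap, 0 of the 6 genes were higher in MC, beside 10.9% of all genes. Without MC control 2, Lcn2 passed, with a log2 fold change of 2.00 and an adjusted p of 0.0329, among 718 of 14129 genes called in that fit. Adjusted p-values of Lcn2 ran from 0.0329 to 0.871 over all alternatives. The sign of the fitted difference of S100a8, S100a9, Retnlg, Csf3r and Cxcr2 turned under at least 1 alternative.

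Each gene was also set against Ptprc of the same library, which itself had a fitted log2 fold change of 1.66 in MC (SE 0.30, edgeR adjusted p = 0.084) beside 0.27 for Csf3r and −0.17 for Cxcr2, so that a lower ratio in MC goes with a higher fitted Ptprc. Csf3r counts amounted to 85.9%, 116% and 48.1% of the Ptprc counts in the MC controls and to 35.1%, 42% and 30.7% in MC. Cxcr2 counts amounted to 15.1%, 27.8% and 10.7% of Ptprc in the controls and to 5.38%, 8.38% and 3.96% in MC. Neither ratio overlapped between the groups, whereas the ratios of S100a8, S100a9, Lcn2 and Retnlg to Ptprc did. Ptprc itself did not overlap, at 8.40 to 19.8 CPM in the controls and 38.3 to 52.4 CPM in MC. The share of all genes whose ratio to Ptprc did not overlap was not formed, so this count is not a result about the receptors. An exact two-sided permutation test gave p = 0.1 for Csf3r and for Cxcr2, the smallest that 3 libraries against 3 allow, and an adjusted p of 1 over the 26 ratios compared in all experiments. These ratios were formed after the levels had been seen. They need no scaling between libraries.

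S100a8 lay at 25.2 and 15.6 CPM in the HC controls and at 8.24, 11.4 and 11.4 CPM in the libraries labelled HC. S100a9 lay at 33.4 and 22.6 CPM in the controls and at 12.6, 20.5 and 16.2 CPM in HC. All 3 HC libraries were below both controls for either subunit, with HC 1 the lowest. Csf3r lay at 33.7 and 27.6 CPM in the HC controls and at 18.2, 15.2 and 17.3 CPM in HC. Cxcr2 lay at 5.39 and 5.40 CPM in the controls and at 4.11, 3.43 and 4.03 CPM in HC. The receptor levels of the groups did not overlap, and the gap was the wider for Csf3r.

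Lcn2 lay at 230.2 and 334.9 CPM in the HC controls and at 191.8, 265.5 and 178.2 CPM in HC. Retnlg lay at 14.8 and 14.6 CPM in the controls and at 7.74, 9.57 and 14.3 CPM in HC. HC 2 overlapped the controls for Lcn2, and HC 3 came close to them for Retnlg.

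The granule genes were few in counts. Ngp, a granule protein of the cathelicidin family made in late marrow precursors, had 83 and 41 counts in the HC controls and 3, 4 and 24 in HC. Camp, the cathelicidin of specific granules, had 13 and 15 counts in the controls and 1, 0 and 1 in HC. Both were below the controls in every HC library, and HC 3 held most of the Ngp counts of its group. Elane, neutrophil elastase, had 1 and 11 counts in the controls and 0, 0 and 1 in HC. Mpo, myeloperoxidase of azurophil granules, had 0 and 6 counts in the controls and 0, 0 and 2 in HC. Elane and Mpo overlapped between the groups and did not pass the filter on low counts.

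The fitted log2 fold change in HC was −0.98 for S100a8 (SE 0.25, adjusted p = 0.153), −0.77 for S100a9 (SE 0.25, adjusted p = 0.223), −0.86 for Csf3r (SE 0.14, adjusted p = 0.0603), −0.48 for Cxcr2 (SE 0.20, adjusted p = 0.315) and −2.39 for Ngp (SE 0.84, adjusted p = 0.248). Lcn2 had −0.42 (SE 0.23, adjusted p = 0.439) and Retnlg −0.48 (SE 0.26, adjusted p = 0.435). Camp, with 2 counts in HC against 28 in the controls, had a ratio of scaled counts of 0.0545 (95% exact counting interval 0.00629 to 0.216) and an edgeR adjusted p of 0.0681; it passed the filter only through the controls. Of all 18407 genes tested 16.1% were lower in HC without overlap, a share not set against the count of members because Camp passed the filter through the controls alone. None of the 8 tested was called, beside 0.565% of all genes in edgeR and 2.54% in DESeq2. DESeq2 called 0 members as well and gave Camp no adjusted p. DESeq2 gave Csf3r an adjusted p of 6.43e-05 with a log2 fold change of −0.87 and S100a8 0.0123 with −0.99, both short of the size threshold. Adjusted p-values of S100a8 ran from 0.0123 to 0.795 over the alternatives. Those of Csf3r ran from 6.43e-05 to 0.765 over the alternatives, and every alternative kept it lower in HC. Camp was called without a filter and in the newer form of the fit, among 395 and 130 genes called. With the replicate number as a block Ngp was called, at −3.88 (edgeR adjusted p = 0.0323), among 339 genes called. Without HC 3 the log2 fold change was −1.07 for S100a8, −0.89 for Csf3r, −0.78 for Retnlg and −3.96 for Ngp. Over each library left out in turn it ran from −1.29 to −0.60 for S100a8, from −1.02 to −0.46 for S100a9, from −0.66 to −0.12 for Lcn2, from −0.78 to −0.30 for Retnlg and from −3.96 to −1.69 for Ngp, with S100a8, S100a9 and Ngp nearest to 0 without HC control 1, Lcn2 without HC control 2 and Retnlg without HC 1. All directions here are of the libraries as labelled, with the Map4k1 levels given above.

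The ratio to Ptprc was formed for S100a8, S100a9, Lcn2, Retnlg, Csf3r and Cxcr2 only. S100a8 counts amounted to 21.7% and 21.5% of Ptprc counts in the HC controls and to 13.2%, 32.5% and 23.3% in HC. Csf3r counts amounted to 29% and 38% of Ptprc in the controls and to 29%, 43.4% and 35.4% in HC. All 6 ratios overlapped between the groups.

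S100a8 in the KC and KMC table lay at 0.136 and 1.16 CPM in KC and at 4.18 and 5.1 CPM in KMC. S100a9 lay at 0.204 and 1.47 CPM in KC and at 5.48 and 6.95 CPM in KMC. KC 1 held 5 counts of both subunits together, the fewest of any library. The KMC libraries lay close to each other after TMM scaling only. By library size alone S100a8 lay at 5.19 CPM in KMC 1 and 11.05 CPM in KMC 2. S100a9 then lay at 6.805 and 15.05 CPM. Lcn2 lay at 3.81 and 3.79 CPM in KC and at 16.4 and 46.9 CPM in KMC. Retnlg lay at 0.136 and 0.426 CPM in KC and at 1.11 and 4.79 CPM in KMC. For Lcn2 and Retnlg the KMC libraries differed from each other, with KMC 2 the higher.

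The receptors followed Lcn2. Csf3r lay at 1.02 and 1.94 CPM in KC and at 6.73 and 18.5 CPM in KMC. Cxcr2 had 2 counts in each KC library, at 0.136 and 0.0774 CPM, and lay at 0.442 and 2.33 CPM in KMC. KMC 2 was again the higher library for either receptor.

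Mpo had 0 and 3 counts in KC and 30 and 38 counts in KMC, or 0.737 and 0.453 CPM in KMC. Elane had 0 counts in both KC libraries and 13 and 14 counts in KMC, or 0.319 and 0.167 CPM. KMC 1 was the higher for both after TMM scaling. By library size alone the order turned for Mpo, at 0.916 CPM in KMC 1 and 0.981 CPM in KMC 2, and held for Elane, at 0.397 and 0.361 CPM. Camp lay at 0.136 and 0.31 CPM in KC and at 1.01 and 0.524 CPM in KMC. Ngp had 0 and 40 counts in KC, with 1.55 CPM in KC 2, and lay at 2.46 and 1.64 CPM in KMC. By library size alone the order of the KMC libraries held for Camp, at 1.25 and 1.14 CPM, and turned for Ngp, at 3.05 and 3.56 CPM. Ngp in KC 2 came within reach of KMC 2 after TMM scaling.

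The fitted log2 fold change in KMC was 2.74 for S100a8 (SE 0.78, adjusted p = 0.111), 2.80 for S100a9 (SE 0.74, adjusted p = 0.103), 3.06 for Lcn2 (SE 0.54, adjusted p = 0.0796), 3.29 for Retnlg (SE 0.91, adjusted p = 0.107) and 3.06 for Csf3r (SE 0.60, adjusted p = 0.0796). Camp had 1.68 (SE 0.76, adjusted p = 0.211) and Ngp 1.31 (SE 1.12, adjusted p = 0.481). For the genes with the fewest KC counts the ratio of scaled counts was 17.4 for Cxcr2 (95% exact counting interval 6.70 to 64.4) and 7.37 for Mpo (2.42 to 36.6), and Elane, at 0 counts in KC, was 2.93-fold higher against a floor of 3 counts over the KC group, with an exact lower limit of 2.22. Intervals and floors cover counting error only. The edgeR adjusted p was 0.112 for Cxcr2, 0.139 for Mpo and 0.133 for Elane. All 10 genes passed the filter; Cxcr2, Mpo, Elane and Camp had under 10 counts in every KC library and passed through KMC alone.

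Of all 15733 genes tested 34.4% were higher in KMC without overlap, a share not set against the count of members because those 4 passed the filter through KMC alone. By edgeR 0 of the 10 were called, beside 0.0191% of all genes (3 of 15733, the sex-linked Xist, Kdm5d and Ddx3y, with 4027 at an unadjusted p under 0.05). With library size alone edgeR called all 10, among 4714 genes. DESeq2, which called 13.7% of all genes, called S100a8, S100a9, Lcn2, Retnlg, Csf3r and Cxcr2, with adjusted p-values of 0.00417, 0.00174, 4.79e-06, 0.00484, 4.39e-05 and 0.0202. It gave Mpo and Elane no adjusted p. With the replicate number as a block (2464 genes called) and in 1 fit over 9 libraries (3230), edgeR called the same 6 genes. Without KMC 1 edgeR called the same genes, among 2312 of 16957. Without KMC 2 it called none of the 10 (76 of 15933 genes), and the log2 fold change was 2.09 for Cxcr2, 1.90 for Retnlg and 2.12 for Lcn2. The size of the difference hung on the scaling, since scaling by library size alone took the median over all genes from 0.03 to 1.47 on the log2 scale. S100a8 had 1.99 on the log2 scale without KC 1 and 5.06 without KC 2, and S100a9 had 2.07 and 4.91. Mpo had 2.31 and Ngp 0.39 without KC 1. Without KC 2 no size is given for Mpo or Ngp, since KC 1 holds 0 counts of both. Only the direction, higher in KMC, can be read there.

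Relative to Ptprc, KC and KMC overlapped for each of S100a8, S100a9, Lcn2, Retnlg, Csf3r and Cxcr2. Csf3r counts amounted to 32.6% and 19.2% of Ptprc counts in KC and to 20.2% and 31.5% in KMC. S100a8 counts amounted to 4.35% and 11.5% of Ptprc in KC and to 12.5% and 8.7% in KMC.

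**Figure D1:**
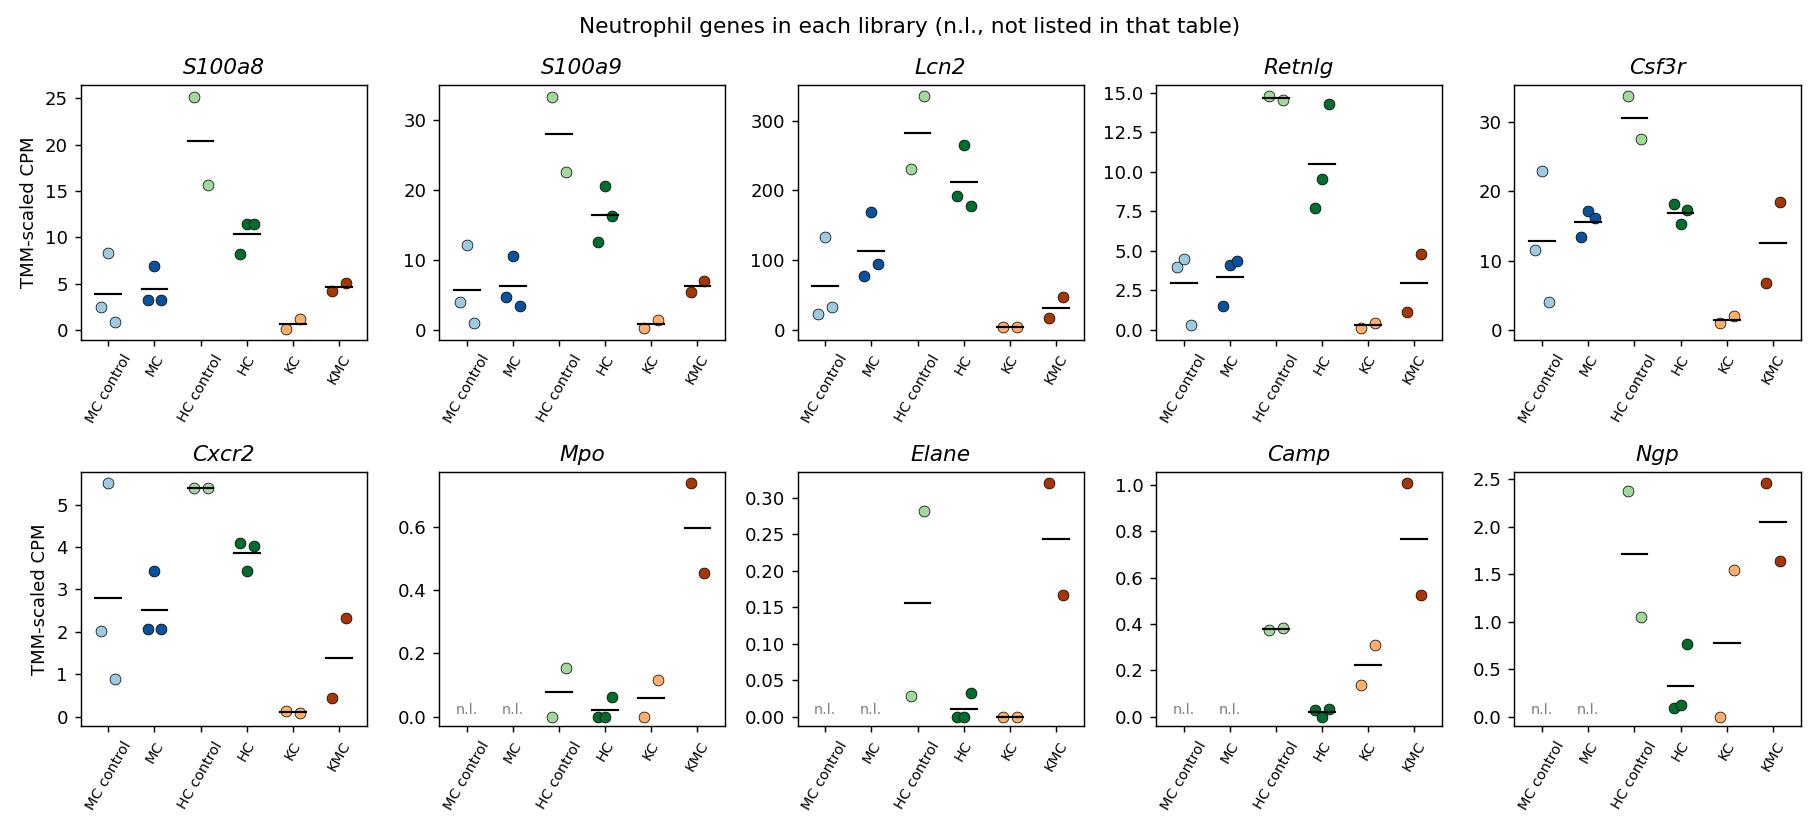
TMM-scaled CPM of the 10 neutrophil genes in each of the 15 libraries (points) with the group mean (bar), on a linear axis for each gene; n.l. marks genes not listed in the MC table. The HC control and HC libraries hold the highest S100a9, Lcn2 and Retnlg, the KC libraries lie near 0 for most genes, and the KMC libraries hold the highest Mpo.

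**Figure D2:**
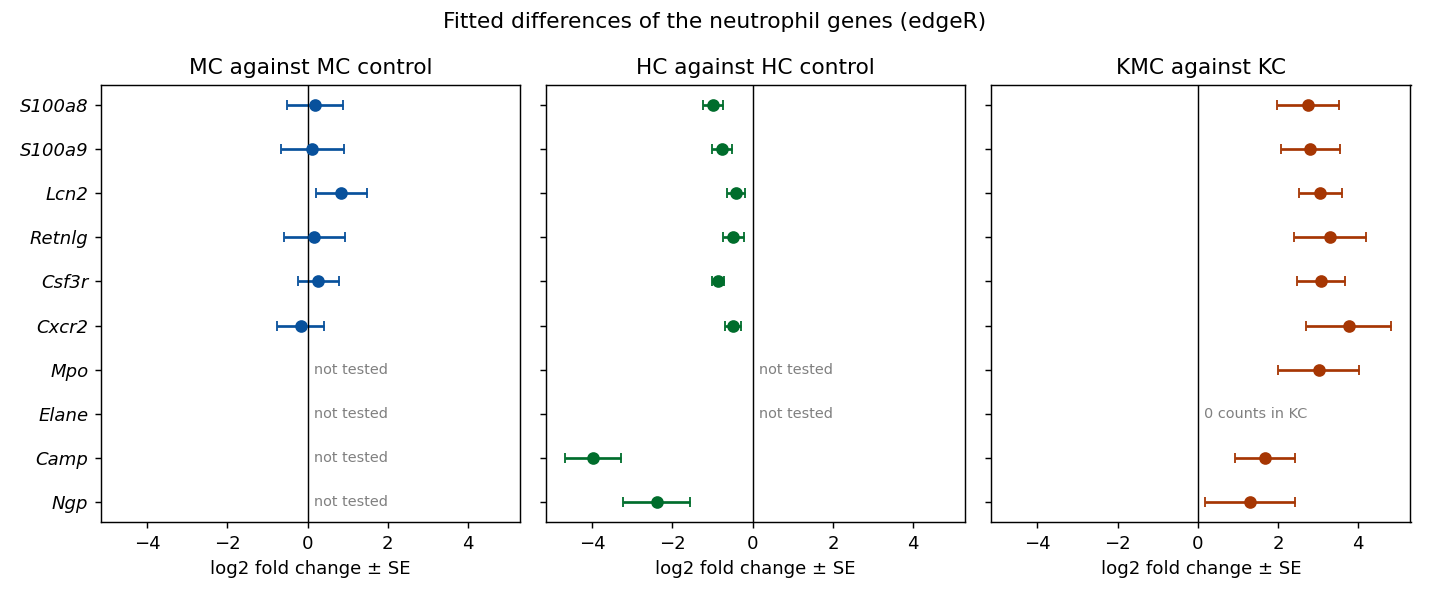
Fitted log2 fold change with its standard error from edgeR for each gene in the 3 comparisons; genes without a fit are marked not tested, and Elane in KMC has no point because KC holds 0 counts. MC estimates lie around 0 except Lcn2 at 0.84, HC estimates lie below 0 and KMC estimates above 0.

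Whether the effects differ was tested in models over 4 groups at a time. The difference of MC from its controls minus that of the libraries labelled HC, whose Map4k1 is lower than in their wild-type controls without Bac-cre, was 1.16 for S100a8 (SE 0.87, adjusted p = 0.476), 1.25 for Lcn2 (SE 0.82, adjusted p = 0.41) and 1.13 for Csf3r (SE 0.63, adjusted p = 0.331) on the log2 scale. No difference was shown for any of the 6 genes in both tables, 0 of which were called beside 2.18% of all 14884 genes (DESeq2 called 0 of the 6 as well). With each library left out in turn the difference ran from 0.689 to 2.37 for S100a8, 0.855 to 2.41 for Lcn2 and 0.717 to 1.84 for Csf3r. Without MC control 2, S100a8, Lcn2 and Csf3r were called, among 1584 of 14885 genes called in that fit. The difference of KMC from KC, in which sex, age and M46 cannot be told apart, minus the difference of MC from its controls was 2.71 for Csf3r (SE 0.92, adjusted p = 0.298), 3.89 for Cxcr2 (SE 1.39, adjusted p = 0.298) and 2.45 for S100a8 (SE 1.23, adjusted p = 0.333). With each library left out in turn it ran from 1.87 to 3.31 for Csf3r, 2.285 to 4.61 for Cxcr2 and 1.23 to 4.83 for S100a8. Again 0 of the 6 genes were called, beside 0% of 14464 genes (2342 at an unadjusted p under 0.05, and 74 called by DESeq2).

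The balance of granule to calprotectin transcripts set the experiments side by side. Counts of Mpo, Elane, Camp and Ngp were summed and given as a share of their sum with S100a8 and S100a9, with 95% Wilson intervals, a quantity chosen after the levels had been seen. The share was 4.53% (3.73 to 5.5) and 4.66% (3.73 to 5.82) in the HC controls. The HC libraries had 0.563% (0.219 to 1.44), 0.397% (0.154 to 1.02) and 3.11% (2.16 to 4.46). HC 1 and HC 2 held 4 granule counts each and HC 3 held 28. The intervals cover counting error only and not the spread between libraries. The intervals of HC 1 and HC 2 lay below those of the controls and that of HC 3 met them, and an exact two-sided permutation test over the libraries gave p = 0.2 (adjusted p = 1 over 26 ratios). KC libraries had shares of 28.6% (8.22 to 64.1) and 42.9% (34.3 to 51.8). KMC libraries had 31.9% (28.2 to 35.8) and 18.8% (16.7 to 21.1). The KC and KMC libraries thus carried granule transcripts as a larger part of the sum than any HC or HC control library, a comparison between tables that was not tested, and KC and KMC overlapped. The erythroid list, which would rise with blood or marrow, had summed levels of 299.4 and 143.6 CPM in KC, 136.8 and 105.5 CPM in KMC, 59.7 and 79.1 CPM in the HC controls and 73.9, 796 and 671.9 CPM in HC. By library size alone the order of KC and KMC turned, at 145.6 and 109.4 CPM in KC and 169.9 and 228.6 CPM in KMC. The part of the erythroid list in the share was not tested.

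**Figure D3:**
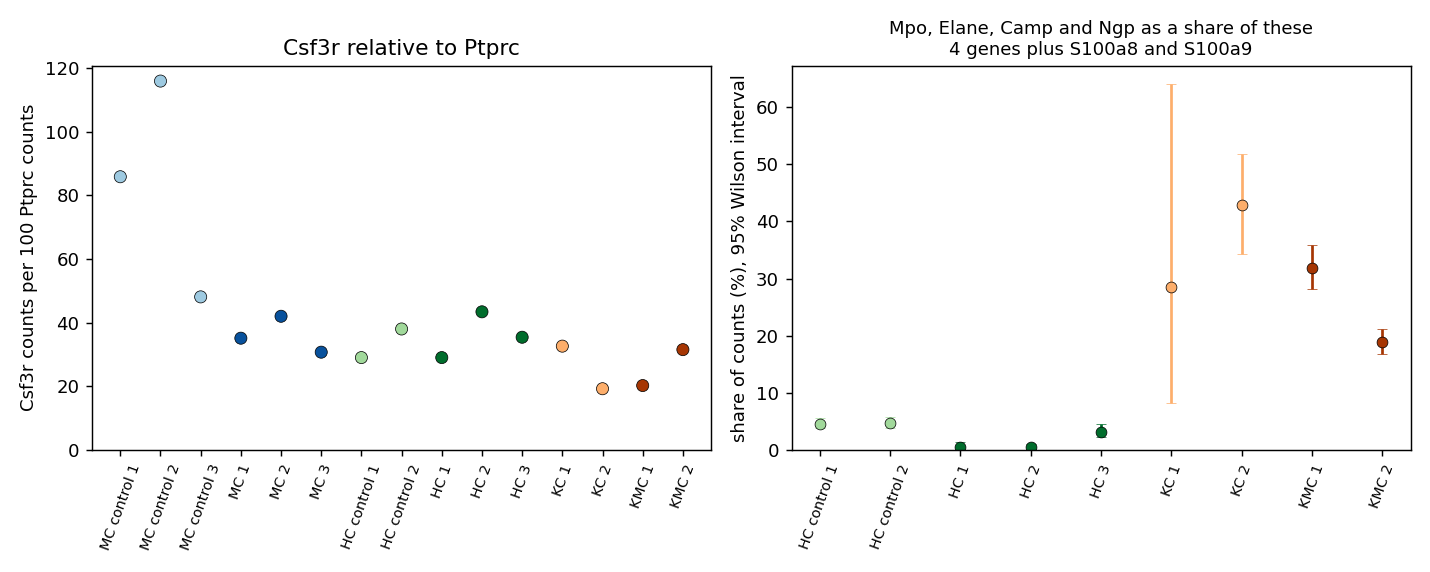
Left, Csf3r counts as a percentage of Ptprc counts in each library, on a linear axis from 0; right, the share of Mpo, Elane, Camp and Ngp counts in the sum with S100a8 and S100a9, with 95% Wilson intervals, for the libraries whose table lists all of these genes. Csf3r per Ptprc is highest in the MC controls, and the granule share is highest in KC and KMC.

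Levels were also divided by the joint length of all annotated exons of a gene, 2623 bases for Lcn2 and 694 for S100a8. This length can exceed that of a single transcript, and the orders and ratios between genes given here depend on it. Per kilobase of exon so counted, Lcn2 led in 5 of the 6 groups. Its mean level was 24.2 CPM per kb in the MC controls (SD 23.3, n = 3), 43.4 in MC (SD 18.4, n = 3), 108 in the HC controls (SD 28.2, n = 2), 80.8 in HC (SD 17.9, n = 3) and 12.1 in KMC (SD 8.24, n = 2). In KC, S100a9 at 1.60 CPM per kb (SD 1.72, n = 2) stood next to Lcn2 at 1.45, and these neighbours overlapped. S100a9 exceeded S100a8 in every library, by a ratio per kb between 1.39 in MC 3 and 2.4 in HC 2. Lcn2 stood clear of the next gene in MC, the HC controls and HC, and overlapped it in the MC controls, KC and KMC. Cxcr2 was the lowest of the 6 listed genes in MC and its controls. In the HC controls the order ran from Lcn2 over S100a9, S100a8, Retnlg at 24.7 CPM per kb, Csf3r at 8.50, Cxcr2 at 1.77, Ngp at 1.40, Camp at 0.499 and Elane at 0.158 to Mpo at 0.0224, where S100a8 and Retnlg, Cxcr2 and Ngp, and Elane and Mpo overlapped. The ratio of Lcn2 to S100a8 per kb was 2.55, 4.26 and 9.83 in the MC controls, 6.47, 6.43 and 7.73 in MC, 2.42 and 5.68 in the HC controls, 6.16, 6.17 and 4.14 in HC, 7.41 and 0.864 in KC, and 1.04 and 2.44 in KMC. KC 2 was the only library with less Lcn2 than S100a8 per kb.

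Of the 20 receptor genes 16 were tested in MC, all fitted higher, with a median log2 fold change of 0.72 (−0.02 over all genes) and groups of 6 apart (10.9% of all genes were higher without overlap); 0 were called. Fcgr4, an IgG receptor, had 1.68 (SE 0.49, edgeR adjusted p = 0.215), and C5ar1, the receptor of complement fragment C5a and the most abundant of the list, 0.51 (SE 0.46, adjusted p = 0.591). In HC 17 receptor genes were tested and all 17 fitted lower, 10 of them without overlap (16.1% of all genes), with a median of −0.64 (0.00 over all genes) and 0 called. Fcgr4 had −1.18 (SE 0.38, adjusted p = 0.221), Tlr2 −0.69 (SE 0.23, adjusted p = 0.233) and Ptafr, the receptor of platelet-activating factor, −0.83 (SE 0.35, adjusted p = 0.318). In KMC 15 receptor genes were tested, all 15 fitted higher, with a median of 2.32 (0.03 over all genes) and 0 called; 4 of them had under 10 counts in every KC library and passed the filter through KMC alone, as did some genes of the granule, mature neutrophil, ligand, transcription factor, T cell, eosinophil and mast cell and erythroid lists. Ptafr had 2.80 (SE 0.49, adjusted p = 0.0796) and Tlr4 2.24 (SE 0.44, adjusted p = 0.0796). Most of these receptors are also carried by macrophages.

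Azurophil granule genes other than Mpo and Elane were led by Ctsc, the protease that activates granule serine proteases and that many tissues express. In MC 3 of the 6 were tested: Prtn3, proteinase 3, with 3 counts in every control, had a log2 fold change of 2.18 (SE 0.48, adjusted p = 0.122), Srgn, the granule proteoglycan, 1.11 (SE 0.34, adjusted p = 0.236) and Ctsc 0.71 (SE 0.23, adjusted p = 0.258). In HC all 4 tested were fitted lower, among them Srgn at −0.60 (SE 0.15, adjusted p = 0.147) and Ctsc at −0.70 (SE 0.23, adjusted p = 0.224). In KMC all 3 tested were fitted higher, with Srgn at 2.03 (SE 0.46, adjusted p = 0.0831), Prtn3 at 2.92 (SE 0.83, adjusted p = 0.113) and Ctsc at 1.62 (SE 0.55, adjusted p = 0.142). None was called. Ctsg, cathepsin G, had at most 11 counts in any library of the HC, KC and KMC tables.

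Of the 12 specific and gelatinase granule genes, 11 were tested in MC with 8 fitted higher and 3 lower, 12 in HC with 4 higher and 8 lower, and 12 in KMC with 11 higher and 1 lower; 0 were called in any. Cybb, the NADPH oxidase subunit of phagocytes, had log2 fold changes of 1.59 in MC (SE 0.32, adjusted p = 0.0977), −0.79 in HC (SE 0.22, adjusted p = 0.177) and 2.56 in KMC (SE 0.49, adjusted p = 0.0796). Lyz2, lysozyme of myeloid cells and the most abundant of the list, had 0.17 in MC (SE 0.39, adjusted p = 0.841), −0.84 in HC (SE 0.37, adjusted p = 0.341) and 2.6 in KMC (SE 0.85, adjusted p = 0.133). Olfm4, a marker of a neutrophil subset that gut epithelium also makes, went the other way in HC, with 1.45 (SE 0.34, adjusted p = 0.126). Cyba, the partner of Cybb, had 0.52 in MC (SE 0.30, adjusted p = 0.424). Mmp25, a membrane metalloproteinase of neutrophils, had 4.01 in KMC (SE 0.75, adjusted p = 0.0796). The difference of Cybb between MC and its controls exceeded that of the libraries labelled HC, whose Map4k1 does not follow their label, by 2.37 on the log2 scale (SE 0.44, adjusted p = 0.0314), a call lost without HC control 1 or without HC 2, where 0 genes were called.

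The mature neutrophil list holds 23 genes, of which 16 were tested in MC (15 fitted higher, 1 lower), 17 in HC (7 higher, 10 lower) and 13 in KMC (12 higher, 1 lower), with 0 called. Hp, haptoglobin, had 3.72 in MC (SE 0.73, adjusted p = 0.0945). Acod1, the itaconate-forming enzyme of activated myeloid cells, had 2.78 in MC (SE 0.56, adjusted p = 0.0995) and −1.73 in HC (SE 0.36, adjusted p = 0.101). Its mean over the HC and HC control libraries was low, at 0.461 CPM. Pglyrp1, a peptidoglycan-binding granule protein and the most abundant of the list in HC, had 0.99 there (SE 0.15, adjusted p = 0.0562). Lrg1, a secreted glycoprotein and the most abundant of the list in MC and KMC, had 0.62 in MC (SE 0.19, adjusted p = 0.233) and 1.31 in KMC (SE 0.62, adjusted p = 0.227). Padi4, which citrullinates histones in neutrophil traps, had 4.09 (SE 0.70, adjusted p = 0.0796) and Slfn4 5.27 (SE 0.97, adjusted p = 0.0796) in KMC. Counts of Stfa1, Stfa2, Stfa2l1, Stfa3 and BC100530, stefins typical of mouse neutrophils, were 0 in every KC library. Zeros were not limited to KC. Of the 23 genes 10 and 7 had 0 counts in KC and 5 and 4 in KMC. In the HC controls 3 and 1 had 0 counts, and in HC 4, 3 and 5.

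Ligands that draw or expand neutrophils were tested in part. In MC 4 of the 10 ligands were tested and all fitted higher, in HC 5 with 2 higher and 3 lower, and in KMC 4, all fitted higher; 0 were called. Cxcl1 had 1.58 in MC (SE 0.68, adjusted p = 0.341), 0.33 in HC (SE 0.26, adjusted p = 0.607) and 1.87 in KMC (SE 0.78, adjusted p = 0.189). Cxcl5 had 5.2 in KMC (SE 1.23, adjusted p = 0.0889), with 0 and 2 counts in KC against 26 and 255 in KMC. Ppbp, a platelet chemokine, had 2.76 in HC (SE 0.63, adjusted p = 0.12). Its mean over the HC and HC control libraries was only 0.315 CPM, so this value rests on few counts. Cxcl12, which retains neutrophils in marrow and was the most abundant of the list, had 0.57 in MC (SE 0.23, adjusted p = 0.318), −0.31 in HC (SE 0.33, adjusted p = 0.711) and 0.47 in KMC (SE 0.33, adjusted p = 0.391). Csf3, the ligand of Csf3r, had 7 and 3 counts in the HC controls, 3, 4 and 10 in HC, 0 in both KC libraries, and 0 and 3 in KMC.

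Of 10 transcription factors of granulocyte formation, all tested in each comparison, 7 were fitted higher and 3 lower in MC, 2 higher and 8 lower in HC, and 8 higher and 2 lower in KMC, with 0 called. Spi1, which encodes PU.1, had 0.92 in MC (SE 0.39, adjusted p = 0.33), −0.86 in HC (SE 0.27, adjusted p = 0.217) and 2.61 in KMC (SE 0.53, adjusted p = 0.0796). Ikzf1, a factor of all lymphoid and many myeloid cells, had 1.27 in MC (SE 0.40, adjusted p = 0.242), −0.84 in HC (SE 0.22, adjusted p = 0.162) and 2.64 in KMC (SE 0.52, adjusted p = 0.0796). Stat3, the most abundant, had 0.14 in MC (SE 0.14, adjusted p = 0.637), −0.12 in HC (SE 0.10, adjusted p = 0.65) and 0.24 in KMC (SE 0.39, adjusted p = 0.722). Cebpe, the factor of late granule genes, had 89 and 26 counts in the HC controls, 20, 9 and 27 in HC, 0 and 6 in KC, and 20 and 72 in KMC.

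All 12 macrophage and monocyte genes were tested in each comparison, with 0 called. In MC 12 of 12 were fitted higher, 7 without overlap (10.9% of all genes), and their summed level was 375, 652.7 and 298 CPM in the controls and 669.6, 837.5 and 1111 CPM in MC, with C1qb the most abundant at a log2 fold change of 1 (SE 0.27, adjusted p = 0.189). In HC 12 of 12 were fitted lower, 9 without overlap (16.1% of all genes), with sums of 2491 and 1617 CPM in the controls and 1161, 1019 and 1448 CPM in HC, C1qa leading at −0.64 (SE 0.31, adjusted p = 0.384). In KMC 12 of 12 were higher without overlap (34.4% of all genes), with sums of 170.2 and 188.6 CPM in KC and 613.1 and 1577 CPM in KMC, C1qa leading at 2.26 (SE 0.59, adjusted p = 0.101). No gene of the list was at 0 counts in any library. Their part in the results on neutrophil genes was not tested.

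T cell genes were fitted higher in 8 of 8 tested in MC, lower in 8 of 9 in HC and higher in 9 of 9 in KMC; summed levels were 2.71, 3.42 and 2.16 CPM in the MC controls, 13.6, 8.39 and 10.7 in MC, 86.3 and 44.1 in the HC controls, 64.8, 25.2 and 24.7 in HC, 2.38 and 3.91 in KC, and 14.3 and 16.0 in KMC. B cell genes were fitted higher in 6 of 6 tested in MC, lower in 7 of 7 in HC and higher in 7 of 7 in KMC, with sums of 3.07, 3.51 and 1.75 CPM in the MC controls, 77.9, 19.1 and 6.22 in MC, 32.3 and 47.5 in the HC controls, 18.0, 17.4 and 18.9 in HC, 1.23 and 11.5 in KC, and 23.9 and 17.7 in KMC. Cd79a, of the B cell receptor, was the 1 called gene (beside 0.565% of all genes), lower in HC by a log2 fold change of −1.31 (SE 0.19, adjusted p = 0.0499), a call lost without HC control 1, HC control 2 or HC 2, where 0 genes were called; it had 3.88 in MC (SE 1.1, adjusted p = 0.204). The most abundant T cell gene was Lck in MC, at 1.62 (SE 0.37, adjusted p = 0.136), and Cd4 in HC and KMC, at −1.01 (SE 0.47, adjusted p = 0.361) and 2.54 (SE 0.49, adjusted p = 0.0796). Cd22 led the B cell list in KMC at 2.59 (SE 0.69, adjusted p = 0.103). In KC 1, 2 T cell genes and 1 B cell gene had 0 counts. Their part in the results was likewise not tested.

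Eosinophil and mast cell genes were mixed, with 3 higher and 3 lower of 6 tested in MC, 6 higher and 4 lower of 10 in HC, and 4 higher and 4 lower of 8 in KMC, and 0 called; Kit was the most abundant in MC at −0.99 (SE 0.36, adjusted p = 0.282) and in KMC at 0.00 (SE 0.31, adjusted p = 0.997), and Mcpt4 in HC at 2.03 (SE 0.47, adjusted p = 0.126). Their summed level was 43.5, 27.6 and 26.9 CPM in the MC controls, 33.0, 14.9 and 17.0 in MC, 102 and 81.6 in the HC controls, 175.3, 69.1 and 82.9 in HC, 12.7 and 16.6 in KC, and 24.4 and 30 in KMC. Erythroid genes were fitted higher in 7 of 7 tested in MC and 6 of 7 in HC, and lower in 5 of 8 in KMC, with Hbb-bs the most abundant, at a log2 fold change of 2.93 in HC (SE 0.95, adjusted p = 0.221), 0.75 in MC (SE 0.74, adjusted p = 0.62) and −0.97 in KMC (SE 0.51, adjusted p = 0.263); HC 2 and HC 3 alone carried the high sums given above. By library size alone the erythroid sums were higher in KMC, at 169.9 and 228.6 CPM, than in KC, at 145.6 and 109.4 CPM. In MC the erythroid sums were 24.6, 147 and 101.6 CPM in the controls and 58.2, 302.6 and 98.5 CPM in MC. The part of blood in the results was not tested.

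The acinar share of the counts differed between tables and groups. The 30 acinar genes (29 listed in the MC table) took 50.5%, 42.1% and 55.9% of all counts in the MC controls and 46.2%, 37.4% and 38.1% in MC. They took 8.71% and 6.92% in the HC controls and 6.89%, 9.04% and 5.77% in HC, so that both HC groups held far less acinar RNA than any other library. The share was 68.9% and 60.2% for KC, against 49.1% and 24.7% for KMC. In KMC 27 of 30 acinar genes were lower without overlap, beside 30.9% of all genes, and Ctrb1, the most abundant, had a log2 fold change of −1.96 (SE 3.06, adjusted p = 0.71). In MC 24 of 29 were fitted lower, with Ctrb1 at −0.39 (SE 0.60, adjusted p = 0.755), and in HC 20 of 30, with Ctrb1 at −0.04 (SE 0.39, adjusted p = 0.973). Ductal epithelial genes, among which epithelial Lcn2 may be placed, were fitted higher in 7 and lower in 8 of 15 in MC, higher in 11 of 15 in HC with 8 apart, beside 17.5% of all genes, and higher in 9 of 15 in KMC; Tff2 led in HC at 1.07 (SE 0.36, adjusted p = 0.237) and in KMC at −2.78 (SE 1.1, adjusted p = 0.173), and Krt18 in MC at −0.44 (SE 0.22, adjusted p = 0.376). The ductal sums were 4951, 4728 and 3905 CPM in the MC controls, 3580, 3987 and 4374 in MC, 8913 and 8647 in the HC controls, 11070, 14090 and 11570 in HC, 5903 and 2179 in KC; KMC libraries had 1605 and 1656 CPM. By library size alone the ductal sums of KC, at 2871 and 1660 CPM, overlapped those of KMC, at 1993 and 3588 CPM. Of 14 housekeeping genes 7 were fitted higher in MC, 9 in HC and 7 in KMC. The part of the acinar and ductal lists in the results was not tested.

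Over the 15 libraries, centred on the mean of each of the 3 experiments, S100a8 and S100a9 had the closest patterns, with Pearson r = 0.987 of log2(CPM + 0.5). Among the 6 listed genes the lowest r was 0.706, between Lcn2 and Retnlg, and Csf3r had 0.921 with S100a8 and 0.913 with Cxcr2. Of 13655 genes compared, those with a pattern near that of S100a8 after S100a9 included Lilra6 and Sprn at 0.946 and Tnfrsf19 at 0.938. Those most like Csf3r were Cercam at 0.98, Lix1l and Selenon at 0.978, Parp8 at 0.977 and Ms4a14 at 0.976. Those most like Lcn2 were Itpripl1 at 0.973, Cacna2d1 and Ajuba at 0.952, Serping1 at 0.951 and Pdgfc at 0.95. These values describe 15 libraries and were not tested.

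S100a8 (ENSMUSG00000056054) lies on chromosome 3 from 90668978 to 90670035 on the plus strand, and S100a9 (ENSMUSG00000056071) from 90692632 to 90695721 on the minus strand (GRCm38, GENCODE M21), with 22.6 kb between them. Camp and Ngp share chromosome 9. RefSeq promoters were matched for all 10 genes and searched over the 250 bases before the start, on both strands, for TTGCNNAA (C/EBP), GAGGAA (PU.1) and TTCNNNGAA (STAT). The C/EBP letters were in 4 of 10 (S100a9, Lcn2, Retnlg and Ngp), against 9.56% of 32851 promoters of that length. The PU.1 letters were in 6 of 10 (S100a8, Lcn2, Csf3r, Cxcr2, Mpo and Elane), against 23.3%. The STAT letters were in 0 of 10, against 7.02%. For S100a8, Lcn2, Csf3r, Mpo, Elane, Camp and Ngp the searched bases reached into the GENCODE gene. The reach was 61 bases in Ngp and 203 in Mpo, and in Lcn2 all 250 bases lay inside the gene. Matches did not overlap one another, and a match is a run of letters and not a shown binding site.

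The promoters of S100a9, Retnlg and Cxcr2 are given because their RefSeq starts fall within 5 bases of the GENCODE gene or outside it. They are shown 5′ to 3′ on the gene's strand, with the matches in capitals: chr3:90695722-90695971 (minus strand), chr16:48872358-48872607 (plus strand) and chr1:74153744-74153993 (plus strand), build GRCm38.p6. The C/EBP match begins at position −236 in S100a9 and, on the other strand and so read TTNNGCAA, at −246 in Retnlg, and the PU.1 match, also on the other strand and read TTCCTC, at −81 in Cxcr2, counted from −1 at the last base before the start.
S100a9: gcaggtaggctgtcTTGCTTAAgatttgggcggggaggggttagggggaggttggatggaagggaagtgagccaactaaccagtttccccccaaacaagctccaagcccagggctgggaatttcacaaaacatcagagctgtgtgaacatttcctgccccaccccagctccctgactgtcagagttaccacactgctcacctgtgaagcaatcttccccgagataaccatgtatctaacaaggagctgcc
Retnlg: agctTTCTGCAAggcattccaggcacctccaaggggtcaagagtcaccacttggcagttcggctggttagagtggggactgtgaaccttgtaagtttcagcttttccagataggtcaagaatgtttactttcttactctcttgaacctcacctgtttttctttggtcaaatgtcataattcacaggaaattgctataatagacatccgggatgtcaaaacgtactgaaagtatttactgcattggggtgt
Cxcr2: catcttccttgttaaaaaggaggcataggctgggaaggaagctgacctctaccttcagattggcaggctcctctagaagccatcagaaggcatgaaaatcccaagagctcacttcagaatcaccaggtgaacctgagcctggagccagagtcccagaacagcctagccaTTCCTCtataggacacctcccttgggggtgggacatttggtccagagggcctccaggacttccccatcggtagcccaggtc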

How the data were processed

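Pancreas RNA-Seq counts of 15 libraries were used as deposited by the authors, in 3 tables of whole-number counts per gene. The submitters' processing notes name bcl2fastq 2.17.14, STAR 2.6.1a, HTSeq 0.6.1 and DESeq2. A file of the authors' own comparisons (fold changes and p-values) was not used. The MC table holds fewer genes than the others, by a rule that is not stated. Gene names, positions and exon lengths came from GENCODE M21, which holds 15164 of the identifiers of the MC table and 49326 of those of each other table (mm10). Ratios were compared with exact permutation tests and shares carry 95% Wilson intervals. Labels name a stranded kit for some libraries only, and methods and labels differ on the kit.

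The members and gene lists were chosen with earlier results of these data known. Genes were filtered with filterByExpr, scaled by TMM and tested with edgeR 4.0.16 in R 4.3.3 (estimateDisp, glmQLFit, glmQLFTest, two-sided, Benjamini-Hochberg over all genes tested), each group against its own control in a fit of those groups alone; called means that the adjusted p did not exceed 0.05 and the log2 fold change was 1 or more in either direction. Alternatives were DESeq2 1.42.0, other scalings, other filters, another form of the fit, a replicate block, 1 fit over 9 libraries and each library left out. The fit was tested on simulated data. Named genes were the 10 members; from each neutrophil list the genes called in a comparison, otherwise up to 2 with the smallest p, and the most abundant; from each other list the most abundant and those called; and up to 5 genes most like S100a8, Csf3r and Lcn2. Genes named outside this rule (Csf3, Ctsg, Cebpe, the stefins, and in the closing section Ltf) were chosen after their values were seen. Totals ran from 29766575 to 38745907 counts, so that 3 counts correspond to 0.0774 to 0.101 unscaled CPM. Replicate libraries differed beyond sampling noise. A further allele shared by KC and KMC, and some genes that met the naming rule, are not reported here.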

Additional observations from a re-analysis of the deposited data

Results flagged for a closer look

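For 7 of 47 named genes tested, the difference of MC from its controls was unlike that of the libraries labelled HC from theirs. The test was of the difference itself (edgeR, adjusted p over 14884 genes), and called 2.18% of all genes. Some were named for a small p in the same comparisons, so their share cannot be set against that of all genes. None of the 7 is among the 10 neutrophil genes. Map4k1 differed by 2.11 on the log2 scale (SE 0.35, adjusted p = 0.0262) and Ptprc by 2.6 (SE 0.45, adjusted p = 0.028), both higher in all 3 MC libraries than in their controls and lower in all 3 libraries labelled HC. Acod1 differed by 4.50 (SE 0.74, adjusted p = 0.0262), with a mean of only 0.461 CPM over the HC and HC control libraries. Cybb differed by 2.37 (SE 0.44, adjusted p = 0.0314). C1qb differed by 1.88 (SE 0.38, adjusted p = 0.0364), Cd22 by 3.83 (SE 0.73, adjusted p = 0.033) and Cd4 by 2.74 (SE 0.60, adjusted p = 0.0424). Of the 325 genes called for this difference, 0 were left without HC control 1 or without HC 2, so that all 7 calls were lost, and no more than 4 genes were called without HC 3 and 8 without MC control 1 or without MC 2. Directions on the HC side are those of libraries whose Map4k1 goes against their label.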

How the results depend on the processing

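None of the 8 members tested in HC or the 10 in KMC was reversed by any alternative. In HC 68 of the values under other settings kept direction and side of the threshold and 3 came past it, and all 40 with a library left out were the same; in KMC 52 and 32 were the same, and 35 and 6 came past it. In MC, Cxcr2 (main −0.17) turned to 0.0182 with library size alone. With a library left out the MC values ran from −0.28 to 1.40 for S100a8, −0.49 to 1.31 for S100a9, −0.33 to 0.59 for Retnlg, −0.13 to 0.99 for Csf3r and −0.56 to 0.77 for Cxcr2, and the MC minus the HC difference from −0.0878 to 1.25 for Cxcr2.

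Counts given as without the acinar list come from scaling by library size less that list, in place of TMM. The list was not left out under TMM. Genes called in MC (main 0) were 453 by DESeq2, 1 with library size alone and 0 to 718 with a library left out. In HC (main 104, 86 higher and 18 lower) they were 468 by DESeq2 (267 higher, 201 lower), 51 with library size without the acinar list, 395 without a filter (223 higher, 172 lower), 1 in the fit over 9 libraries and 0 to 379 with a library left out. In KMC (main 3, 1 higher and 2 lower) they were 2159 by DESeq2 (1455 higher, 704 lower), 4714 with library size alone (4694 higher, 20 lower), 1910 without the acinar list (1884 higher, 26 lower), 9 without a filter, 3230 in the fit over 9 libraries and 0 to 2312 with a library left out. For the MC minus the HC difference (main 325, 264 higher and 61 lower) they were 1005 by DESeq2, 98 with library size alone (93 higher, 5 lower), 165 without the acinar list and 0 to 1584 with a library left out; for the KMC difference minus the MC difference (main 0) 74 by DESeq2 and 0 to 959.

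Here too the acinar list was left out under library size and not under TMM. Members called in HC (main 0) were 1 without a filter and 1 in the newer form of the fit. In KMC (main 0) they were 6 by DESeq2, 10 with library size alone, 7 without the acinar list, 6 in the fit over 9 libraries and 0 to 6 with a library left out. With a library left out they were 0 to 1 in MC and 0 to 3 for the MC minus the HC difference, and MC members without overlap 0 to 4, a count that leaving out a library can only raise at a fixed scaling. The share of all genes without overlap was not formed with a library left out. The count of MC members without overlap is therefore not a result about the members. The cause of these changes was not tested. Where a group is left with 1 library, it is assumed to vary like the other group.

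Replicate numbers do not pair the MC libraries: same-numbered deviations had r of 0.0762, 0.313 and −0.347, and MC control 3 was closer to MC 1 (0.394). Same-numbered r was 0.214 and 0.202 in HC, and 0.101 and 0.101 in KMC. The HC controls, KC and KMC hold 2 libraries each, whose deviations mirror each other, so these values cannot decide pairing there. With the replicate number as a block 339 genes were called in HC (184 higher, 155 lower) and 2464 in KMC, 1 member in HC (Ngp) and 6 members in KMC, and Cxcr2 in MC was 0.11.

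Groups of 2 or 3 pooled libraries, the sex difference between KC and KMC, the Map4k1 levels of HC and HC 3 limit these results, and genes with few counts, such as Elane and Mpo, are limited by depth.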

Other observations

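Olfm4 had 1171 and 938 counts in the HC controls and 3802, 2224 and 1665 in HC. Pglyrp1 had 2815 and 2714 counts in the controls and 4955, 5411 and 4046 in HC. They were the only genes of the specific granule list (1 of 12) and the mature neutrophil list (1 of 17) tested that were higher in HC without overlap, beside 17.5% of all genes. Of the same lists 2 of 12 and 7 of 17 were lower in HC without overlap, beside 16.1% of all genes. Of 15 ductal genes 8 were higher in HC without overlap and 2 lower, with Tff2 at a log2 fold change of 1.07. Their part in the Olfm4 and Pglyrp1 levels was not tested. Ltf, lactoferrin, had 658 and 816 counts in the controls and 1402, 948 and 545 in HC, which overlapped. Olfm4 had 10, 32 and 0 counts in the MC controls and 14, 24 and 32 in MC, and 8 and 6 in KC against 18 and 68 in KMC. The difference in Olfm4 counts between tables was not tested.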
